A study of Mus musculus with 36 samples.

Results

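The genes described here encode glycosylation enzymes and nucleotide-sugar transporters, measured in isolated pancreatic islets of mice with or without Gαz, the inhibitory G protein alpha subunit encoded by Gnaz. They were chosen by symbol, not by measured value. Every gene whose symbol starts with Alg, Slc35, Mgat, Galnt, B4galt, B3galt, St3gal, St6gal or St8sia, followed by a letter or digit, was taken from the transcript clusters that name a single gene, with the brightest cluster kept for each gene. This gave 95 of the 14860 genes tested. They comprised 10 Alg genes, called ER steps below, 25 Slc35 transporters, and 60 Golgi steps, of which 10 were Mgat, 19 Galnt, 6 B4galt, 5 B3galt, 6 St3gal, 8 St6gal (St6galnac genes included) and 6 St8sia. The class follows the symbol and not the place of the protein. Slc35b1 and Slc35d1, for example, lie in the ER membrane. Mgat4a and B4galt2 share a cluster with another gene, and they and other family members without a cluster of their own, such as Alg6, were not analysed here.

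Islets came from male mice of the C57BL/6N substrain. KO HFD denotes Gαz-null mice fed a high-fat diet (4 arrays), WT HFD wild-type mice fed the same diet (4 arrays), KO CD Gαz-null mice fed a control diet (5 arrays) and WT CD wild-type mice fed the control diet (5 arrays). The sample labels give an age of 6 months for all groups, and the protocol gives 37 to 40 weeks. The study describes a shorter feeding experiment for these arrays, which ended at an age near that of the labels. The null allele lacks a coding exon of Gnaz in every cell of the body and not only in beta cells, and islets were picked by hand from digested pancreas. Each array carries its own islet number, and p-values measure the spread between these preparations.

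The values are log2 expression after RMA normalization, with 1 value per gene and array. Gnaz itself was 10.03 to 10.11 in KO HFD islets against 11.02 to 11.26 in WT HFD islets. It was 10.20 to 10.56 in KO CD islets against 11.04 to 11.15 in WT CD islets. Every array thus matched the genotype of its label, and the Gnaz value does not check the diet. This value summarises probes along the gene and not the deleted exon alone. Defining islet genes (Ins2, Gcg, Sst and 6 others) lay between 11.1 and 14.4 in all 17 arrays fitted. KO HFD islet 11 was left out of the fit, so that KO HFD had 3 arrays in the tests. The level in islet 11 is given beside those of members listed array by array. The median gene of an array was 8.34 to 8.40 in these 3 KO HFD arrays, against 8.48 to 8.64 in WT HFD arrays and 8.51 to 8.71 in KO CD arrays. The median gene was thus lower in KO HFD, and the median difference of all genes tested was −0.13 for KO HFD over WT HFD and −0.18 for KO HFD over KO CD. Fold changes were therefore also fitted after each array was centred on its median. A gene is called when its limma p-value, adjusted by Benjamini-Hochberg over 14860 genes, is below 0.05.

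Asparagine-linked glycosylation starts in the ER, where Alg enzymes build a branched sugar chain on the lipid dolichol, and the oligosaccharyltransferase then moves the finished chain onto new proteins. In the Golgi, this chain is trimmed, and further transferases extend it, start chains on serine and threonine, and cap them with galactose and sialic acid. Slc35 proteins carry the activated sugars these enzymes consume, such as UDP-galactose and GDP-fucose, from the cytosol into the lumen. Insulin itself carries no such chains, but the prohormone convertases, receptors and transporters of the beta cell do.

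In islets of KO HFD mice, 43 of the 95 members were called against WT HFD, 42 of them lower (44.2% of the members) and 1 higher. Of all genes tested, 29.4% were called in this comparison, 28.1% lower and 1.32% higher. The lower members were 9 of 10 ER steps, 16 of 25 transporters and 17 of 60 Golgi steps. With all 18 arrays 35 members were called, and 21.2% of all genes.

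Among the 10 Alg genes, 9 were called lower in KO HFD islets than in WT HFD islets and the tenth was not called. The median Alg gene stood at −0.40 on the log2 scale, against −0.13 over all genes. Each of the 9 called Alg genes had all 3 KO HFD arrays below all 4 WT HFD arrays, a separation that 38.7% of all genes showed in one direction or the other. The tenth, Alg13, differed by −0.07 ± 0.10 (SE, limma adjusted p = 0.66), and by 0.10 after centring. Its mean level was below 7.51, the 95th percentile of 718 olfactory receptor genes, used here as a limit for genes at or near background.

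Alg5, which makes the dolichol-linked glucose that the late steps consume, had levels of 9.48, 9.48 and 9.47 in KO HFD islets against 10.20, 10.12, 9.95 and 10.02 in WT HFD islets. It was 9.80 to 10.20 in KO CD and 9.88 to 10.07 in WT CD islets. The 3 KO HFD arrays were below every other array of the series, and islet 11, the KO HFD array left out, was at 9.86, inside the KO CD range. The difference between KO HFD and WT HFD was −0.59 ± 0.08 (SE, limma adjusted p = 4.2e-04), and −0.50 (adjusted p = 0.0064) with islet 11 included.

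The other Alg genes are given in the order in which their products act. Alg14, which with Alg13 adds the second N-acetylglucosamine, differed by −0.51 ± 0.13 (adjusted p = 0.0088). Alg1, which adds the first mannose, differed by −0.25 ± 0.07 (adjusted p = 0.015). Alg2 and Alg11 add the remaining mannoses on the cytosolic face, and they differed by −0.29 ± 0.07 (adjusted p = 0.0064) and −0.47 ± 0.08 (adjusted p = 0.0013). Alg3, Alg9 and Alg12 add mannoses in the lumen. Alg3 was 11.25, 11.10 and 11.19 in KO HFD islets against 11.60, 11.66, 11.69 and 11.57 in WT HFD islets, a difference of −0.45 ± 0.06 (adjusted p = 3.9e-04). Its level in islet 11 was 11.61, within the WT HFD range. Alg9 differed by −0.32 ± 0.07 (adjusted p = 0.0059). Alg8, which adds the second glucose, differed by −0.35 ± 0.09 (adjusted p = 0.013), and it was the one Alg gene whose call was lost with all 18 arrays (−0.26, adjusted p = 0.061).

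Alg12, one of these luminal mannosyltransferases, had levels of 9.99, 10.16 and 10.11 in KO HFD islets against 10.77, 10.59, 10.73 and 10.56 in WT HFD islets. The difference was −0.58 ± 0.09 (adjusted p = 6.1e-04). Islet 11 stood at 10.57, within the WT HFD range. Of the 8 ER-step genes with a promoter in the RefSeq table (GRCm38.p6; 250 bases before to 50 after the start), Alg12 alone held the ER stress response element, which is CCAAT, 9 bases of any kind and CCACG, searched on both strands. The element was found for 37 of 27025 genes (0.137%). It is printed because it is the sequence through which unfolded-protein signals are known to reach ER genes. The 80 bases lie at chr15:88819479-88819558 on the minus strand, and the capitals mark the match. The window overlaps the promoter of Creld2, a gene read in the opposite direction.
Alg12: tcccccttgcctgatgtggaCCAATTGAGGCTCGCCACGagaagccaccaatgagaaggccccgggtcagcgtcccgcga
The related element, ATTGG and CCACG with 1 base between them, and the unfolded protein response element core TGACGTGG were in no member's promoter, among the 75 members with one. They occurred for 0.0444% and 0.714% of all genes. The cAMP response element TGACGTCA was in the promoters of Alg13, B4galt3 and Galnt11, and in those of 2.03% of all genes.

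**Figure D1:**
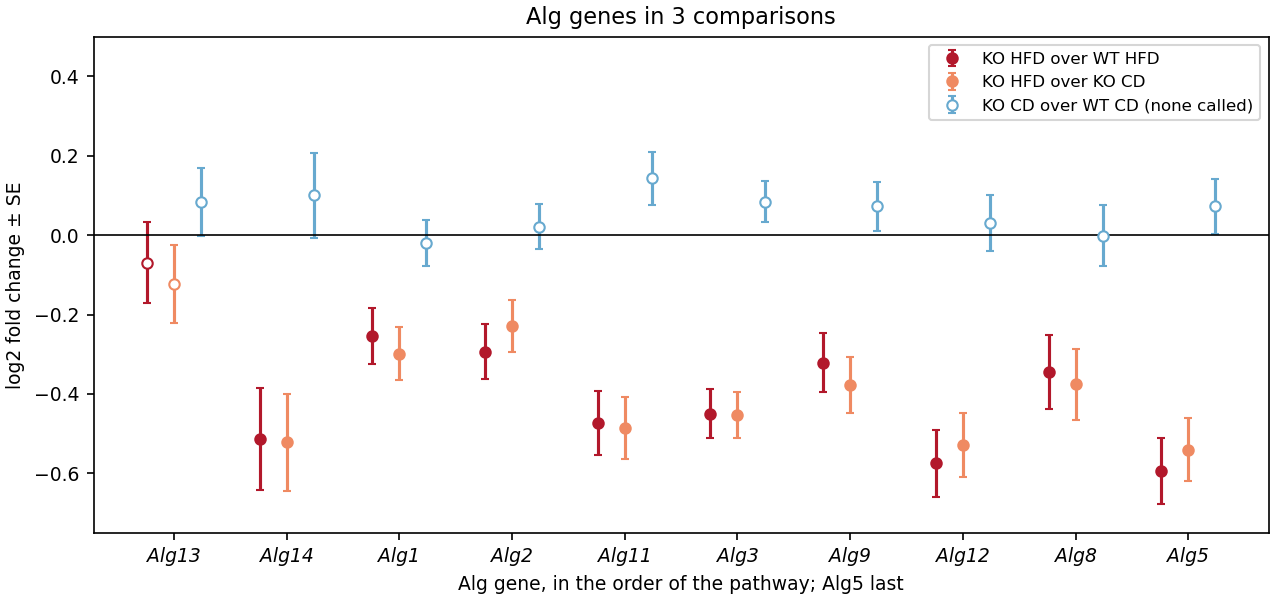
Log2 fold change (y axis, ± SE) of the 10 Alg genes (x axis) for KO HFD over WT HFD, KO HFD over KO CD and KO CD over WT CD, from the fit of 17 arrays; filled points passed the adjusted threshold. The first 2 comparisons share the KO HFD arrays. In both, 9 genes lie below 0 and are filled, while the KO CD over WT CD points lie between −0.02 and 0.14 and are open.

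Genes of the same ER route outside the Alg family were read from 3 lists, beside the 28.1% of all genes that were called lower. Of 9 other genes of dolichol and lipid-linked oligosaccharide synthesis, 7 were called lower (median −0.35), among them Dpagt1, which starts the chain (−0.35, adjusted p = 0.0075), Dhdds, which makes the dolichol backbone (−0.41, adjusted p = 0.0015), and Dpm2 (−0.38, adjusted p = 0.0027), a subunit of dolichol-phosphate mannose synthase. Of 11 oligosaccharyltransferase genes, 9 were called lower (median −0.35). Its ribophorins Rpn1 (−0.45, adjusted p = 3.4e-04) and Rpn2 (−0.34, adjusted p = 0.0033) and the subunit Ddost (−0.41, adjusted p = 3.9e-04) were among them. The 2 catalytic subunits differed by −0.23 (adjusted p = 0.0099) for Stt3a, which acts during translocation, and by 0.00 (adjusted p = 0.99) for Stt3b, which acts after it. Of 14 glucosidases, lectins and related genes that read the chain in the ER, 10 were called lower (median −0.28). The lectin chaperone Calr (−0.36, adjusted p = 5.7e-04) was lower, whereas its membrane-bound partner Canx differed by −0.11 (adjusted p = 0.11). After centring, 1 of 9, 4 of 11 and 2 of 14 genes of these 3 lists were still called lower, against 5.35% of all genes, and with all 18 arrays 4 of 9, 7 of 11 and 8 of 14, against 20.3%.

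Markers of exocrine tissue moved with this comparison. Of 11 acinar digestive enzyme genes, 10 were called higher in KO HFD islets than in WT HFD islets, and 9 of 12 other acinar genes were too. Over all genes tested, 28.1% were called lower and 1.32% higher. The mean of the 11 enzymes was 13.94 to 14.13 in the 3 KO HFD arrays against 13.26 to 13.69 in WT HFD arrays, and it was 13.61 to 13.98 in KO CD and 13.84 to 14.12 in WT CD arrays. The acinar mean of 4 of the 5 WT CD arrays was thus within the KO HFD range. The mean over the 10 Alg genes was 9.63 to 9.71 in the 3 KO HFD arrays, against 9.86 to 10.07 in WT CD islets. In KO HFD islet 11, left out of the fit, it was 9.91, inside the WT CD range. With the acinar mean as a covariate, limma called none of the 95 members between KO HFD and WT HFD, where 38 had an unadjusted p below 0.05, and 9 of all 14860 genes were called. The Alg5 difference was then −0.62 ± 0.14 (SE, adjusted p = 0.064) and the median Alg gene −0.53. The KO HFD and WT HFD ranges of the acinar mean did not overlap, and the SE of Alg5 was 0.08 without the covariate. Of the 59 members called lower against KO CD, described below, 46 were also called with it. Of 8 endothelial markers, 7 were called lower for KO HFD over WT HFD, as were 4 of 9 islet endocrine markers and 1 of 8 stellate and fibroblast markers. These counts stand beside the 28.1% of all genes called lower. After centring none of these endothelial, endocrine or stellate markers was called by limma. The lowest adjusted p was then 0.093 among endothelial markers (Cdh5) and 0.21 among endocrine markers (Sst). Of 5 duct markers, only Muc1 was called higher (1.35, adjusted p = 0.010). Krt19, Cftr, Sox9 and Onecut1 were not called, with differences of 0.28, 0.02, 0.14 and 0.14. The mean of the 5, Muc1 included, was 7.89 to 8.41 in KO HFD arrays against 7.53 to 7.77 in WT HFD arrays, without overlap. It was 7.89 to 8.47 in KO CD arrays and 8.08 to 8.46 in WT CD arrays. The part of these markers in the result was not tested. In whole islets, a smaller share of a cell type cannot be told apart from less RNA per cell of that type.

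The islet numbers run through all 4 groups from 1 to 11 and again from 12 to 18, and both stretches hold every group. What separates them is not given in the labels. Within islets 1 to 11, with KO HFD islet 10 as its only KO HFD array, 26 members were called between KO HFD and WT HFD, 22 lower and 4 higher, where 11.1% of all genes were called, and Alg5 differed by −0.60 ± 0.13 (SE, limma adjusted p = 0.017). Within islets 12 to 18, with islet 16 as the only WT HFD array, limma called 0 members and 0 of all genes, 19 members had an unadjusted p below 0.05, and Alg5 differed by −0.55 ± 0.12 (adjusted p = 0.38). In both fits the lone array was taken to vary like the arrays of the other groups.

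**Figure D2:**
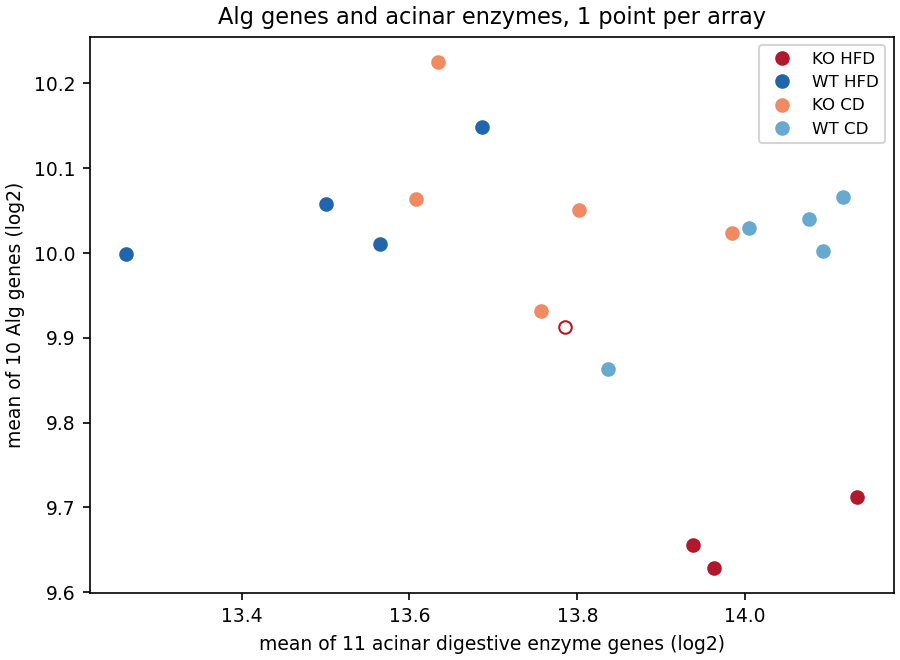
Mean level of the 10 Alg genes (y axis, log2) against the mean level of 11 acinar digestive enzyme genes (x axis, log2), 1 point per array, coloured by group; the open point is KO HFD islet 11. The 3 KO HFD arrays in the fit lie at 9.63 to 9.71 on the y axis. WT CD islets 4, 5, 6 and 15, within the x range of these arrays, lie at 10.00 to 10.07. WT CD islet 14, below that x range, lies at 9.86.

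Among the Slc35 transporters, 16 of 25 were called lower in KO HFD islets than in WT HFD islets and none was called higher (median −0.31). Slc35c1, the Golgi GDP-fucose transporter, was 9.98, 10.24 and 10.04 in KO HFD islets against 10.82, 10.67, 10.84 and 10.62 in WT HFD islets. It was 10.42 to 10.66 in KO CD islets and 10.43 to 10.66 in WT CD islets, so that the 3 KO HFD arrays were again below all others, and islet 11 stood at 10.54. The difference on the high-fat diet was −0.65 ± 0.08 (SE, limma adjusted p = 3.4e-04), the smallest adjusted p of all 95 members.

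Slc35a2, the UDP-galactose transporter, was 9.15, 9.26 and 9.40 in KO HFD islets against 9.77, 9.79, 9.81 and 9.79 in WT HFD islets (−0.52 ± 0.07, adjusted p = 4.5e-04). Its level in islet 11 was 9.74. Slc35a3, which is known to carry UDP-N-acetylglucosamine, differed by −0.43 ± 0.11 (adjusted p = 0.0087), and Slc35a1, the CMP-sialic acid transporter, by −0.31 ± 0.09 (adjusted p = 0.021). Slc35b2, which carries the sulfate donor PAPS, differed by −0.43 ± 0.09 (adjusted p = 0.0038), and Slc35b1, the ER transporter that exchanges ATP for ADP, by −0.37 ± 0.07 (adjusted p = 0.0016).

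Slc35f4, an orphan transporter, was 7.66, 7.57 and 7.76 in KO HFD islets (7.89 in islet 11) against 8.44, 8.76, 8.34 and 8.29 in WT HFD islets (−0.80 ± 0.13, adjusted p = 9.1e-04). Slc35d2, a carrier of UDP-N-acetylglucosamine in the Golgi, was 6.32, 6.46 and 6.68 in KO HFD islets (7.18 in islet 11) against 7.55, 7.29, 7.20 and 7.22 in WT HFD islets (−0.83 ± 0.16, adjusted p = 0.0024), at a mean level below the olfactory limit. Slc35f1 (−0.65 ± 0.14, adjusted p = 0.0047), Slc35f5 (−0.40 ± 0.06, adjusted p = 0.0010) and Slc35a4 (−0.39 ± 0.07, adjusted p = 0.0018) were also called. Among the 9 transporters not called, Slc35d3 differed by −0.32 ± 0.13 (adjusted p = 0.071), Slc35d1, the ER carrier of UDP-glucuronic acid, by −0.23 ± 0.10 (adjusted p = 0.093), and Slc35b4, which carries UDP-xylose and UDP-N-acetylglucosamine, by 0.18 ± 0.12 (adjusted p = 0.27), with −0.13 within islets 1 to 11.

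The Golgi stress response element core ACGTGGC, searched on both strands, was in the promoters of Slc35c1 and Slc35e3 among the 22 transporters with a promoter, and in those of 2.95% of all genes. It shares ACGTGG with the core TGACGTGG. Windows of 80 bases are shown because this element is known from genes of Golgi glycosylation, and because one of these transporters was called and the other was not (Slc35e3, −0.21 ± 0.09, adjusted p = 0.085). The Slc35c1 window is chr2:92460529-92460608 on the minus strand, before 1 of its 2 listed starts, and the Slc35e3 window is chr10:117746399-117746478 on the minus strand. Capitals mark the match.
Slc35c1: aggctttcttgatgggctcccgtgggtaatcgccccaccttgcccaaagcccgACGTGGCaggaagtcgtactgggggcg
Slc35e3: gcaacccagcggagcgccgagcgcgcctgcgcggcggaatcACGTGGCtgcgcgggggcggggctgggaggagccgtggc

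Upstream of the transporters, 9 of 19 genes that make the activated sugars were called lower for KO HFD over WT HFD and none higher (median −0.19), where 28.1% of all genes were called lower. Cmas, which activates sialic acid, differed by −0.58 (adjusted p = 3.2e-04), Nans, which makes sialic acid, by −0.45 (adjusted p = 0.0031), Gfpt1, which commits glucose to the hexosamine route, by −0.37 (adjusted p = 0.0014), and Pgm3, of the same route, by −0.46 (adjusted p = 0.0056). After centring, 2 of the 19 were called lower, against 5.35% of all genes.

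**Figure D3:**
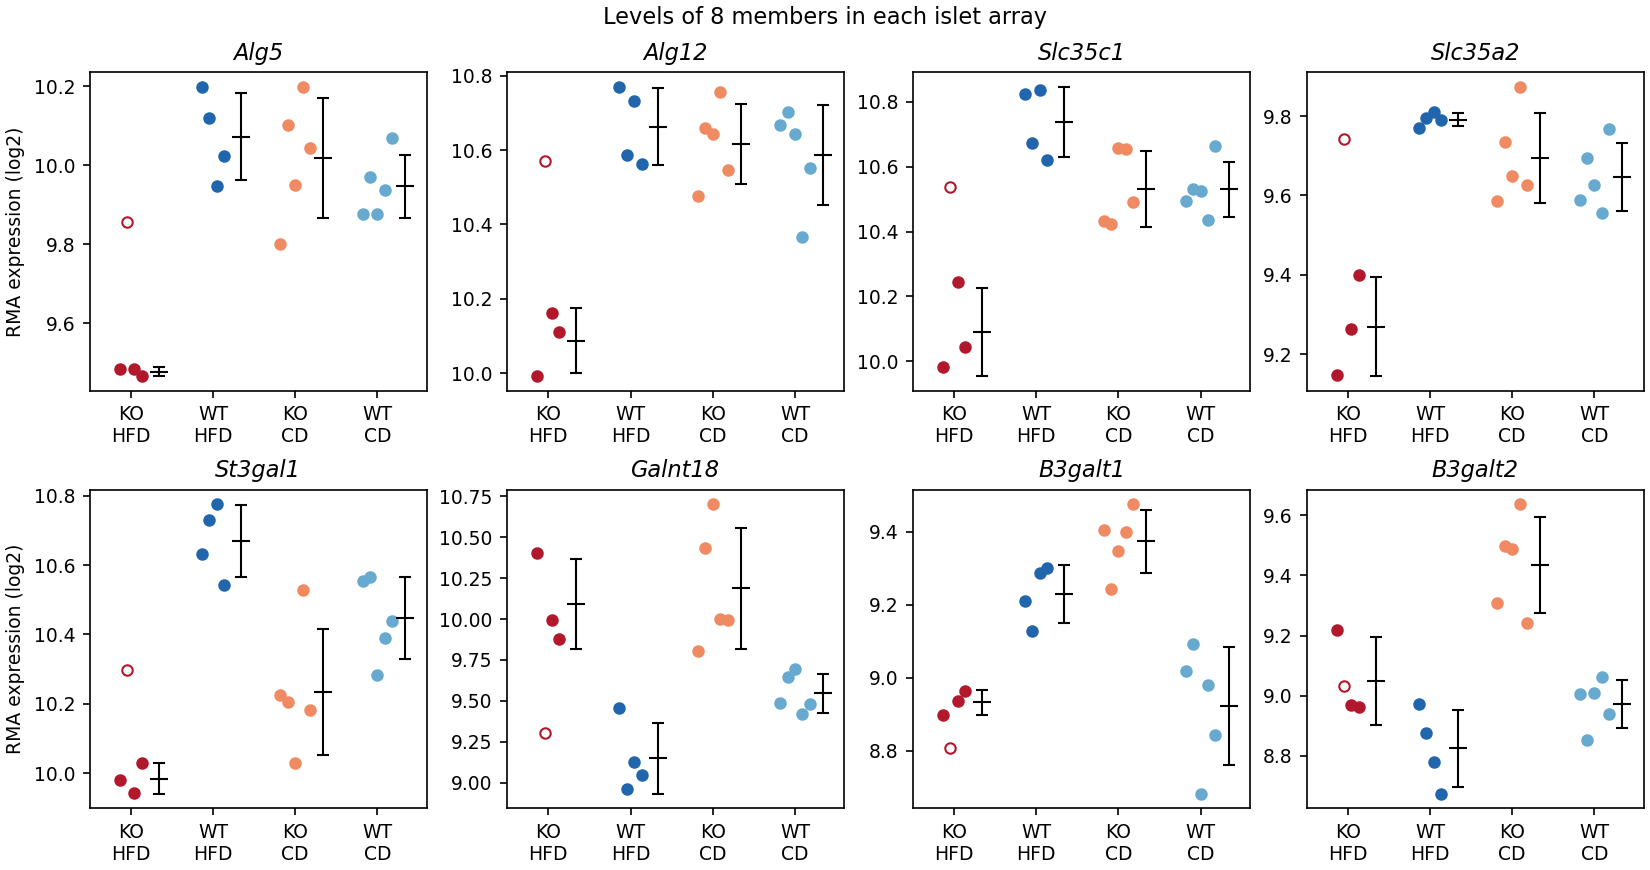
RMA expression (y axis, log2) of 8 members in every array, by group; filled points entered the fit, the open point is KO HFD islet 11, and the bar beside each group is the mean ± SD of the filled points. The y axes differ and do not start at 0. For Alg5, Alg12, Slc35c1, Slc35a2 and St3gal1 the 3 filled KO HFD points lie below all WT HFD points, and for Galnt18 they lie above them.

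The Golgi steps were mixed. Of 60 genes, 17 were called lower and 1 higher for KO HFD over WT HFD (median −0.14), so that the share called lower was 28.3%, next to 28.1% over all genes. Of the 20 sialyltransferases, 5 were called, all lower. St3gal1, which adds sialic acid to the galactose of O-linked chains, was 9.98, 9.94 and 10.03 in KO HFD islets (10.30 in islet 11) against 10.63, 10.73, 10.78 and 10.54 in WT HFD islets (−0.69 ± 0.10, adjusted p = 4.5e-04). St8sia5, a ganglioside sialyltransferase, differed by −0.56 ± 0.11 (adjusted p = 0.0027), St6galnac6 by −0.44 ± 0.09 (adjusted p = 0.0023), St6galnac5 by −0.45 ± 0.11 (adjusted p = 0.0094) and St6gal1, which sialylates N-linked chains, by −0.38 ± 0.10 (adjusted p = 0.011). By family, the calls were 1 of 6 St3gal, 3 of 8 St6gal and 1 of 6 St8sia genes.

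Of the 5 B3galt genes, 4 were called lower. B3galt6, which adds a galactose to the linker of glycosaminoglycans, was 7.90, 8.22 and 8.07 in KO HFD islets (8.51 in islet 11) against 8.63, 8.56, 8.72 and 8.57 in WT HFD islets (−0.56 ± 0.11, adjusted p = 0.0023). B3galt5 (−0.51 ± 0.13, adjusted p = 0.0090), B3galt4 (−0.43 ± 0.13, adjusted p = 0.020) and B3galt1 (−0.30 ± 0.08, adjusted p = 0.015) were the others. After centring B3galt4 (−0.26, adjusted p = 0.12) and B3galt1 (−0.13, adjusted p = 0.38) were not called. Of 6 B4galt genes, 2 were called lower, namely B4galt3 (−0.22 ± 0.07, adjusted p = 0.026) and B4galt7, an enzyme of the same linker (−0.20 ± 0.06, adjusted p = 0.020), whereas B4galt6, which makes lactosylceramide, differed by 0.16 ± 0.06 (adjusted p = 0.062) and was called higher after centring (0.33, adjusted p = 0.0063). Of 10 Mgat genes, the 2 called lower were Mgat1 (−0.32 ± 0.10, adjusted p = 0.028) and Mgat2 (−0.24 ± 0.09, adjusted p = 0.043), whose products set the first branches of complex N-linked chains. None of these B4galt and Mgat genes was called lower after centring. The calls of 2 of 6 and 2 of 10 genes stand beside 28.1% of all genes called lower.

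Of the 19 Galnt genes, which start mucin-type O-linked chains, 4 were called lower (21.1%, against 28.1% of all genes). Galnt10 was 9.51, 9.58 and 9.54 in KO HFD islets (9.89 in islet 11) against 10.03, 9.94, 9.92 and 9.90 in WT HFD islets (−0.40 ± 0.06, adjusted p = 7.1e-04). Galnt4 differed by −0.54 ± 0.14 (adjusted p = 0.013). The only member called higher was Galnt18. Its levels were 10.40, 10.00 and 9.88 in KO HFD islets against 9.46, 8.96, 9.13 and 9.05 in WT HFD islets, a difference of 0.95 ± 0.18 (SE, limma adjusted p = 0.0023). Islet 11 stood at 9.30, inside the WT HFD range, and with it the difference was 0.75 (adjusted p = 0.019). In KO CD islets Galnt18 was 9.81 to 10.70, against 9.42 to 9.69 in WT CD islets. These groups did not overlap either, but the difference of 0.64 ± 0.15 was not called (adjusted p = 0.12). The largest uncalled differences in the Golgi class were those of Galnt3 (0.70 ± 0.28, adjusted p = 0.075), St6galnac2 (0.53 ± 0.21, adjusted p = 0.068) and St8sia4 (−0.32 ± 0.16, adjusted p = 0.15). Galnt3, at a mean level below the olfactory limit, was 8.00 in KO HFD islet 10 against 6.52 and 6.51 in islets 17 and 18. St6galnac2 was 9.92 in islet 10 against 8.81 and 8.92 in islets 17 and 18. In islet 11 they were 6.84 and 9.36. The differences of Galnt3 and St6galnac2 were below 0 once the acinar mean was a covariate (−0.22 and −0.19).

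**Figure D4:**
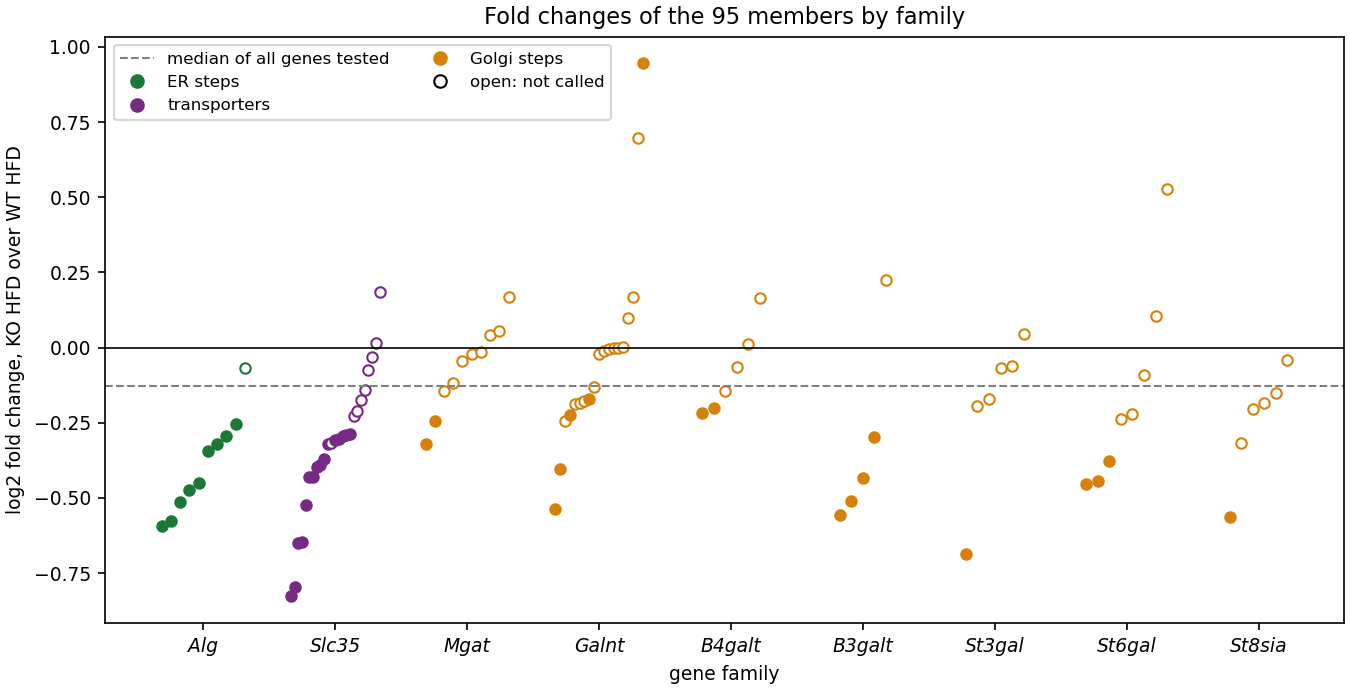
Log2 fold change of KO HFD over WT HFD (y axis) for each of the 95 members, grouped by family (x axis); filled points were called, open points were not, and the dashed line is the median of all genes tested (−0.13). The Alg and Slc35 points lie mostly below the line, and the Golgi families are spread on both sides of it.

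Set side by side, the ER steps were called lower in 9 of 10 genes, the transporters in 16 of 25 and the Golgi steps in 17 of 60. Expression above the olfactory limit differed between the classes, at 9 of 10, 22 of 25 and 43 of 60 genes. Among genes above that limit, 9 of 9 ER steps, 15 of 22 transporters and 16 of 43 Golgi steps were called lower, against 39.0% of all genes above it. After centring, 5 of 10 ER steps and 8 of 25 transporters were called lower and none higher, while 6 Golgi steps were called lower and 5 higher, against 5.35% and 4.92% of all genes. The class medians were then −0.23, −0.14 and 0.03, against a median of 0.04 over all genes. The 5 Alg genes called after centring were Alg5, Alg12, Alg14, Alg11 and Alg3. No class was tested against another.

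Within an array, the mean of the 10 Alg genes minus the mean of the 60 Golgi genes was 1.20, 1.21 and 1.22 in KO HFD islets against 1.47, 1.48, 1.49 and 1.50 in WT HFD islets. It was 1.34 to 1.48 in KO CD and 1.28 to 1.47 in WT CD islets, and 1.30 in islet 11. The 3 KO HFD arrays were below every other array, and 2 of the 4 WT HFD arrays were above every control-diet array. Relative to the array median, the Alg mean was 1.29 to 1.31 in KO HFD islets against 1.50 to 1.55 in WT HFD islets, and the transporter mean was 0.89 to 0.99 in KO HFD islets against 1.08 to 1.15 in WT HFD islets. The transporter mean was 0.92 to 1.03 in KO CD and 0.95 to 1.05 in WT CD islets. These ranges overlapped that of the 3 KO HFD arrays, and the 4 WT HFD arrays lay above all of them. In islet 11, left out of these ranges, the transporter mean was 1.09, inside the WT HFD range, and the Alg mean was 1.40. The Golgi mean was 0.07 to 0.12 in KO HFD islets against 0.02 to 0.07 in WT HFD islets. After centring, the median difference was 0.03 over the Golgi genes and 0.04 over all genes tested. In WT CD islet 14 the Alg mean was 1.30 above the array median, inside the KO HFD range.

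**Figure D5:**
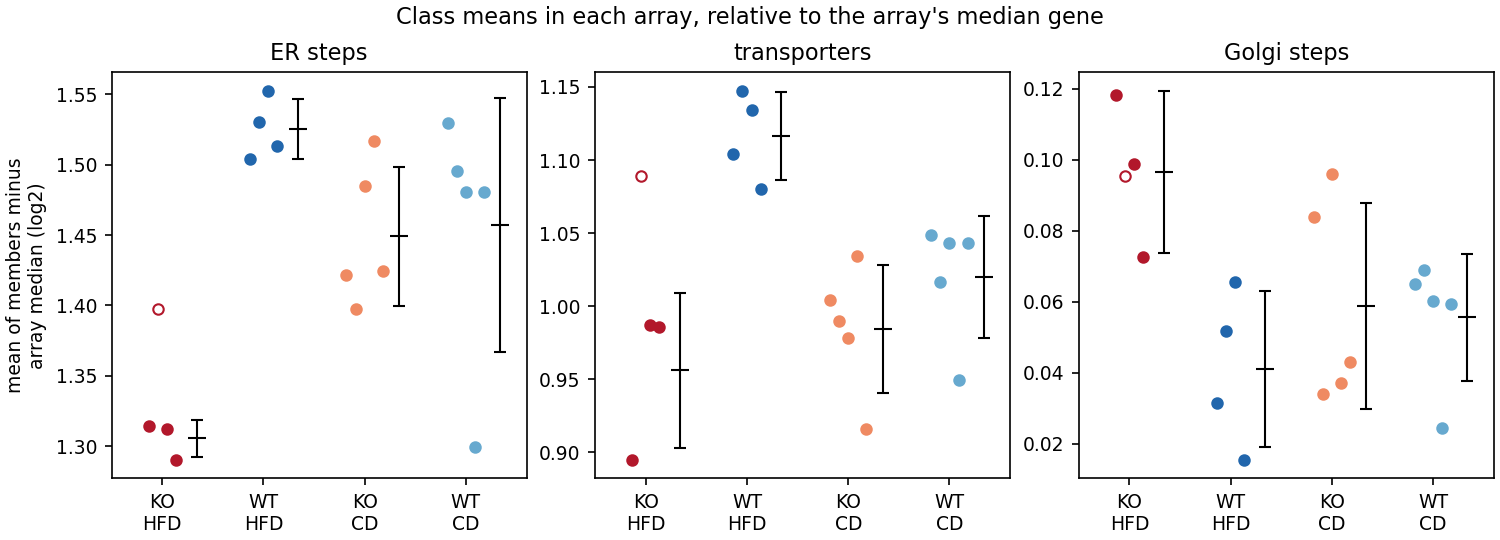
Mean level of the ER steps, transporters and Golgi steps minus the median gene of the same array (y axis, log2), by group; filled points entered the fit, the open point is KO HFD islet 11, and bars are the mean ± SD of the filled points. The y axes differ. The filled KO HFD points lie at 1.29 to 1.31 for the ER steps, below the WT HFD arrays at 1.50 to 1.55, and at 0.07 to 0.12 for the Golgi steps.

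The diet comparison within KO islets uses the same KO HFD arrays, so its values stand beside those against WT HFD and are not independent of them. Here 59 of 95 members were called lower in KO HFD than in KO CD islets and none higher (median −0.25). Of all genes, 46.1% were called, 44.6% lower and 1.45% higher. With all 18 arrays 49 members were called, and 42.6% of all genes. The ER steps were again 9 of 10 (median −0.42), the transporters 18 of 25 (median −0.27) and the Golgi steps 32 of 60 (median −0.23). Alg5 differed by −0.54 ± 0.08 (adjusted p = 4.4e-04), Alg12 by −0.53 ± 0.08 (adjusted p = 4.8e-04), Alg14 by −0.52 ± 0.12 (adjusted p = 0.0031) and Alg3 by −0.45 ± 0.06 (adjusted p = 4.4e-04). Slc35c1 differed by −0.44 ± 0.08 (adjusted p = 8.3e-04), Slc35a2 by −0.42 ± 0.07 (adjusted p = 6.1e-04), Slc35a3 by −0.53 ± 0.10 (adjusted p = 0.0011) and Slc35b2 by −0.49 ± 0.09 (adjusted p = 8.5e-04).

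All 5 B3galt genes were called lower in KO HFD than in KO CD islets, with B3galt5 at −0.61 ± 0.12 (adjusted p = 0.0013), B3galt6 at −0.53 ± 0.10 (adjusted p = 0.0012) and B3galt1 at −0.44 ± 0.08 (adjusted p = 8.5e-04). Galnt1, a widely expressed starter of O-linked chains, differed by −0.51 ± 0.11 (adjusted p = 0.0016) and Galnt12 by −0.30 ± 0.06 (adjusted p = 0.0010). After centring the picture differed by class. Of the ER steps 5 of 10 were still called lower (median −0.17), of the transporters 4 were called lower and 2 higher, and of the Golgi steps 3 were called lower and 12 higher, against 7.64% and 22.0% of all genes. St3gal1, called at −0.25 ± 0.09 (adjusted p = 0.036) before centring, stood at 0.00 after it, where the median of all genes was 0.07. Lower in both KO HFD comparisons were 40 members, made up of 9 ER steps, 15 transporters and 16 Golgi steps. The comparisons share the KO HFD arrays, and 28.1% (against WT HFD) and 44.6% (against KO CD) of all genes were called lower. The share of all genes lower in both was not counted, so the overlap is not read as a result about the members.

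On the control diet, loss of Gαz was accompanied by 2 calls among the 95 members, both higher, where 0.155% of all genes were called (0.141% higher). B3galt1, a β1,3-galactosyltransferase, was 9.24 to 9.48 in KO CD islets (median 9.40) against 8.68 to 9.09 in WT CD islets (median 8.98). The groups did not overlap, as for 3.39% of all genes, and the difference was 0.45 ± 0.07 (SE, limma adjusted p = 0.013). B3galt2, an enzyme of the same family, was 9.24 to 9.64 in KO CD islets (median 9.49) against 8.85 to 9.06 in WT CD islets (median 9.00), a difference of 0.46 ± 0.08 (adjusted p = 0.024). Neither was called when only these 2 groups were fitted (adjusted p = 0.084 for B3galt1 and 0.064 for B3galt2). The call of B3galt2 was also lost without any one of KO CD islets 2, 3 and 12 or WT CD islets 4, 5, 6, 14 and 15, with adjusted p up to 0.088. On the high-fat diet B3galt1 was 8.90 to 8.97 in KO HFD islets against 9.13 to 9.30 in WT HFD islets, whereas B3galt2 was 8.96 to 9.22 in KO HFD islets against 8.67 to 8.97 in WT HFD islets (0.22 ± 0.10, adjusted p = 0.088). All 10 Alg genes differed by between −0.02 and 0.14 between KO CD and WT CD islets, with adjusted p of 0.31 or more.

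In wild-type islets the high-fat diet gave no call among the members by limma (0 of 95, of which 17 had an unadjusted p below 0.05), where 0.188% of all genes were called. The Alg differences between WT HFD and WT CD lay between −0.06 and 0.13. A fit of these 2 groups alone called 3 members, where 1.19% of all genes were called.

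The genotype difference on the high-fat diet minus that on the control diet, tested as an interaction, was called for 43 members, all lower, where 32.6% of all genes were called (31.2% lower and 1.45% higher). These were 8 of 10 ER steps, 16 of 25 transporters and 19 of 60 Golgi steps. With all 18 arrays 30 members, 9 of them transporters, and 23.9% of all genes were called. The interaction was −0.67 ± 0.11 for Alg5 (limma adjusted p = 0.0028) and −0.65 ± 0.11 for Slc35c1 (adjusted p = 0.0028). It was −0.75 ± 0.11 for B3galt1 (adjusted p = 0.0025), the member called higher in KO on the control diet and, before centring, lower in KO on the high-fat diet, and −0.80 ± 0.14 for B3galt6 (adjusted p = 0.0030). For Galnt18 it was 0.30 ± 0.24 (adjusted p = 0.35). After centring, 11 members were called lower and 5 higher, against 3.34% and 4.66% of all genes.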

How the data were processed

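Islet RNA was hybridised to Affymetrix Mouse Exon ST arrays, 1 array per islet preparation. The authors deposited log2 values of 23332 transcript clusters for 18 arrays, background-corrected, quantile-normalized and summarised by RMA in Affymetrix Expression Console 1.3 per the labels and methods, so depth is unknown and the number of arrays limits the precision. The genome build is not given in the sources used here, and exon-level values were not analysed here. Of the clusters, 14996 named 1 gene, 1019 several and 7317 none. The brightest cluster was kept for each of 135 genes with several, which left 14860 genes. Groups came from the sample labels. The members, gene lists and tests were chosen with earlier results of these data known.

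The study used 3 KO HFD arrays without naming the one it left out. Leaving out islet 11 placed 71 of 71 matched fold changes within 0.01 of those in the study's supplement, and omitting islet 10, 17 or 18, or no array, placed at most 4, so the fit used 17 arrays. A linear model with 1 mean per group was fitted to all genes with limma 3.58.1 in R 4.3.3 (lmFit, eBayes). P-values were adjusted by Benjamini-Hochberg across the 14860 genes, and 0.05 was the threshold. Promoters came from RefSeq (GRCm38.p6) and were matched by symbol for 75 of 95 members. Named genes were the Alg members, called Golgi and transporter members with the smallest adjusted p (up to 6 each way per comparison), the brightest and the largest uncalled members, their paralogs, and up to 4 genes per list by adjusted p. Rpn2, Stt3a, Stt3b, Canx, Dpagt1, B4galt7, Mgat1, Mgat2, B3galt4, B4galnt1 and St6galnac5 were added or kept after their values were seen. The script was tested on simulated data. Alternatives were all 18 arrays, other scalings, filters and weights, islets 1 to 11 and 12 to 18 as a block or each alone, an acinar covariate, a stricter threshold and each array left out.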

Additional observations from a re-analysis of the deposited data

Results flagged for a closer look

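In 2 of the 72 groups examined for single arrays (18 members in 4 groups each), 1 array stood far from the rest by Dixon's criterion, which chance meets in about 1 of 20 groups. Both were KO HFD islet 11, the array left out of the fit. Alg5 was 9.86 in it and 9.47 to 9.48 in the other KO HFD arrays, and St3gal4 was 10.71 in it and 7.51 to 7.67 in the others. With islet 11 included, the KO HFD over KO CD difference of St3gal4 was 0.37, against −0.40 (limma adjusted p = 0.043) without it.

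The genotype effect on the high-fat diet differed from that on the control diet, by the limma interaction term, for 14 of the 18 members examined. Among ER steps it was −0.67 for Alg5 (adjusted p = 0.0028), −0.53 for Alg3 (adjusted p = 0.0025), −0.61 for Alg12 (adjusted p = 0.0036), −0.62 for Alg11 (adjusted p = 0.0029) and −0.61 for Alg14 (adjusted p = 0.013). Among transporters it was −0.65 for Slc35c1 (adjusted p = 0.0028), −0.57 for Slc35a2 (adjusted p = 0.0028), −0.69 for Slc35d2 (adjusted p = 0.021) and −0.47 for Slc35f5 (adjusted p = 0.0032). Among Golgi steps it was −0.47 for St3gal1 (adjusted p = 0.012), −0.42 for Galnt10 (adjusted p = 0.0040), −0.80 for B3galt6 (adjusted p = 0.0030), −0.51 for St6galnac6 (adjusted p = 0.0056) and −0.75 for B3galt1 (adjusted p = 0.0025). Of all genes tested, 32.6% were called for this term. Most of the 18 members had already been called between KO HFD and WT HFD islets. That difference is part of this term, so their count cannot be compared with the share of all genes.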

How the results depend on the processing

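No paired analysis was possible because no number recurs: each array has an islet number of its own. Between KO HFD and WT HFD, 43 members were called (9 ER steps, 18 Golgi steps, 16 transporters). Median centring called 24 (5, 11 and 8; 10.3% of all genes), quantile normalization 28 (11 Golgi steps; 11% of all genes), cyclic loess 26 (5 ER steps, 8 transporters; 10.5% of all genes), islets 1 to 11 alone 26 (4 ER steps, 10 transporters; 11.1% of all genes), islets 12 to 18 alone 0 (0, 0 and 0), the acinar covariate 0 (0, 0 and 0) and a threshold of 0.01 called 28 (8 Golgi steps). All 18 arrays called 35. Leaving out single arrays gave 34 to 46 members, 7 to 9 ER steps, 13 to 21 Golgi steps and 13 to 18 transporters.

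Between KO HFD and KO CD, 59 members were called (9, 32 and 18). Centring called 26 (5, 15 and 6; 29.6% of all genes), quantile normalization 11 (4, 4 and 3; 16.3%), loess 12 (4, 5 and 3; 15.6%), islets 1 to 11 called 13 (2, 8 and 3; 7.08%), islets 12 to 18 called 20 (8 Golgi steps, 5 transporters; 17.1%), 0.01 left 20 Golgi steps, and all 18 arrays called 49. Single omissions gave 45 to 60 members, 9 ER steps in every fit, 22 to 33 Golgi steps and 14 to 18 transporters.

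Between KO CD and WT CD, 2 members were called, against 0 with only these groups, 1 with centring, quantile or loess, 1 within islets 1 to 11, 0 within 12 to 18, 0 with the acinar covariate, 0 at 0.01 and 1 to 3 in single omissions. Between WT HFD and WT CD, 0 were called, and 3 with only these groups (1.19% of all genes). Array weights called 3 (2.95% of all genes), islets 1 to 11 called 2, and single omissions 0 to 2, with 2 without KO HFD islet 10. The interaction called 43, and 16 with centring (8% of all genes), 14 with quantile (7.36%), 12 with loess (6.92%), 16 within islets 1 to 11 (6.97%), 0 within 12 to 18, 0 with the covariate, 19 at 0.01, 30 with 18 arrays and 33 to 48 in single omissions.

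Some signs turned. Against WT HFD, Alg13 was 0.10 after centring, Galnt3 −0.22 and St6galnac2 −0.19 with the covariate, and Slc35b4 −0.13 within islets 1 to 11. Against KO CD, Alg2 was 0.020 after centring and 0.0028 with loess, St3gal1 was 7.1e-04, 0.0057 and 0.017 with centring, quantile and loess, St3gal4 was 0.37 with 18 arrays, and Alg13 was 0.13 after centring and 0.0068 within islets 1 to 11. Of the 43 members called against WT HFD, 0 changed sign under any of the 3 scalings, and of the 59 against KO CD 11 did with centring, 10 with quantile normalization and 10 with loess. The causes were not tested. With 3 to 5 arrays a group, and 1 in some single-run fits, a missing call is no measure of a missing difference.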

Other observations

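Other Golgi genes were read from a list of their own. Of 25 mannosidases and other Golgi transferases, 10 were called lower and 1 higher in KO HFD islets than in WT HFD islets (median −0.16), where 28.1% of all genes were called lower. C1galt1, which builds the core of mucin-type chains, differed by −0.38 (limma adjusted p = 0.0020), B3gnt3 by −0.46 (adjusted p = 6.9e-04) and Ugcg, which starts glycosphingolipids, by −0.51 (adjusted p = 0.0038). The gene called higher was B4galnt1, a ganglioside synthase, at 1.05 (adjusted p = 0.026). After centring, 3 of the 25 were called lower and 2 higher, against 5.35% and 4.92% of all genes. With all 18 arrays 3 were called lower and 1 higher, where 3015 of all 14860 genes were called lower and 142 higher. B3gnt3 (adjusted p = 0.073) and Ugcg (adjusted p = 0.14) were then not called.

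The COG complex tethers vesicles that return glycosylation enzymes to their Golgi cisternae. Of its 6 measured genes, 4 were called lower for KO HFD over WT HFD, with Cog6 at −0.46 (limma adjusted p = 3.4e-04), Cog2 at −0.34 (adjusted p = 0.0016), Cog8 at −0.25 (adjusted p = 0.012) and Cog4 at −0.22 (adjusted p = 0.023), and 2 of these calls were made after centring. The share called lower over all genes was 28.1%, and 5.35% after centring.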
